A study of Mus musculus with 3 samples.

Results

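The lysosome and V-ATPase genes described here are 41 mouse genes chosen by symbol from a fixed list, out of 55536 genes in the tables. They comprise 9 cathepsins, 8 other hydrolases and lumenal proteins, 6 membrane proteins, 13 subunits and 2 accessory subunits of the vacuolar proton pump (V-ATPase), and 3 transcription factors of the TFE family. Their RNA was measured in 3 libraries of 1 group, made by ribosomal RNA-depleted total RNA-seq from the chromatin fraction of C57BL/6J bone marrow-derived macrophages given 100 ng/ml lipid A for 50 min. Lipid A is the part of bacterial lipopolysaccharide that Toll-like receptor 4 senses, and chromatin-associated RNA is rich in transcripts still being made or spliced. The libraries were labelled biological replicates 1, 2 and 3 and were made from 1000, 250 and 500 ng of RNA. Their labels named the same mouse donor entry, so it is not stated that the replicates came from separate animals, and the spread between them may be partly technical. No untreated cells and no other fraction of the cells were analysed here, so the values show levels on chromatin at 1 time and no response to lipid A.

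Lysosomes are acidic organelles in which hydrolases break down proteins, lipids, glycans and nucleic acids, and macrophages use them to digest what they engulf. The V-ATPase acidifies them: its cytosolic V1 part splits ATP and turns a rotor that drives protons through the membrane-bound V0 part. Tfeb, Tfe3 and Mitf are related basic helix-loop-helix leucine zipper proteins that bind E-box sequences in the promoters of many lysosomal and V-ATPase genes, and nutrient signalling at the lysosome controls their entry into the nucleus.

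The libraries held 10496703, 17687379 and 14806118 expected counts in replicates 1, 2 and 3. The 41 genes took 0.666%, 0.655% and 0.577% of them. All 10 macrophage markers were detected, with a median of 43.9 TPM, and Csf1r, the receptor for the macrophage growth factor CSF1, had 91.3, 140.03 and 136 TPM. Of 42 markers of other cell types, 6 were detected, none averaged 10 TPM or more and 14 were at 0 in every library. Their summed level was 19.5, 13.5 and 17.2 TPM. In the second of 2 deposited quantifications 16 of the 42 were detected, among them 4 of 5 fibroblast markers, and their median was 0.187 TPM. These bulk values cannot tell fewer cells of a type from less RNA per cell.

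Nearly all of the listed lysosomal and V-ATPase genes were detected on chromatin. A gene was called detected when each library gave it 10 or more expected counts, and 40 of the 41 members were detected, where 43.9% of 22028 protein-coding genes and 21.9% of all genes were. The members were chosen with earlier results of these data known, so their high detection and level may partly follow from that choice. Of 103 further lysosomal genes outside the list 86 were detected, but only 4 of the 10 V-ATPase genes among them. The median member averaged 32.9 TPM (transcript abundance corrected for length and scaled to a fixed sum), against 4.87 TPM for the 9665 protein-coding genes detected. The median over members was 40.98, 29.96 and 41.3 TPM in replicates 1, 2 and 3, which is 37.4 ± 6.46 TPM (SD, n = 3). At least 100 TPM was reached by 7 members and at least 10 TPM by 35. Of the 9665 protein-coding genes detected, 372 and 3285 reached these levels. All levels are TPM of the first of 2 deposited quantifications unless stated, in replicates 1, 2 and 3 in that order, and each ± is an SD with n = 3.

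Cathepsins, the lysosomal proteases, formed the most abundant of the 7 role groups, with a median of 99.0 TPM over 9 genes. Ctsc (ENSMUSG00000030560), whose product is a dipeptidyl peptidase that activates granule serine proteases, lies on chromosome 7 from 88278085 to 88310888 (GRCm38, plus strand). It had 566, 279 and 411 TPM (419 ± 143), the highest mean of the 41 genes, with the highest value in replicate 1 and the lowest in replicate 2. Ctsb, a cysteine protease gene on chromosome 14 (63122462 to 63145923, plus strand), had 289, 218 and 231 TPM, and its range did not overlap that of Atp6v0a1, the next gene in order of mean level. In the second quantification the ranges overlapped, with 467, 385 and 354 TPM for Ctsb and 421, 322 and 296 TPM for Atp6v0a1. Ctsa encodes a carboxypeptidase that also stabilises beta-galactosidase and neuraminidase, and it averaged 138 ± 23.5 TPM. Ctsh (an aminopeptidase) and Ctsz (a carboxypeptidase) stood close together at 99.5 ± 14.8 and 99.0 ± 12.8 TPM. Below them were the aspartic protease gene Ctsd (78.8 ± 8.48), the endopeptidase gene Ctsl (56.8 ± 7.12) and Ctss (24.7 ± 5.81), whose product trims the invariant chain of class II antigen presentation. Ctsk, known for collagen breakdown by osteoclasts, was the 1 member not detected. It had 7, 9 and 7 expected counts (0.41, 0.28 and 0.32 TPM), and of 7 other osteoclast markers 2 were detected, the transcription factor gene Nfatc1 (5.91 ± 1.57 TPM) and the acid phosphatase gene Acp5 (4.62 ± 0.197 TPM).

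The 8 other hydrolases and lumenal proteins covered a wide range around a median of 22.4 TPM. Psap (chromosome 10, 60277627 to 60302597, plus strand) encodes prosaposin, the precursor of the saposins that help enzymes reach sphingolipids. It had 244, 435 and 341 TPM (340.3 ± 95.6), highest in replicate 2 and lowest in replicate 1, and its range overlapped that of Ctsc. Grn, which encodes progranulin, averaged 72.9 ± 6.41 TPM, and Npc2, which encodes the cholesterol carrier of the lysosomal lumen, 63.3 ± 15.7 TPM. Hexa, for a chain of beta-hexosaminidase, averaged 28.3 ± 1.21 TPM, and Gusb, for beta-glucuronidase, 16.5 ± 1.20 TPM. Lower still were the acid lipase gene Lipa (11.4 ± 2.49 TPM) and the acid alpha-glucosidase gene Gaa (8.58 ± 2.17 TPM). Glb1, the beta-galactosidase gene, was the lowest of this group, with 2.15, 4.18 and 3.36 TPM. Its 3 values lay below every value of the other genes in the group.

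The 6 membrane proteins lay closer together, between 18.1 and 59.3 TPM on average. Lamp2, for a major glycoprotein of the lysosomal membrane, had 82.3, 35.6 and 60.03 TPM, highest in replicate 1. Its relative Lamp1 averaged 41.5 ± 5.48 TPM, the calcium channel gene Mcoln1 32.9 ± 8.52, the macrophage glycoprotein gene Cd68 31.0 ± 3.48 and Laptm5, for a transmembrane protein of blood cell lysosomes, 20.9 ± 5.09. Npc1, whose product exports cholesterol from the lysosome, was the lowest, with 22.6, 16.6 and 15.1 TPM. Except for Ctsl above Lamp1, neighbours in the order of level had overlapping ranges from Atp6v0a1 down to Atp6v0d2, so the middle of the order is not resolved.

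**Figure D1:**
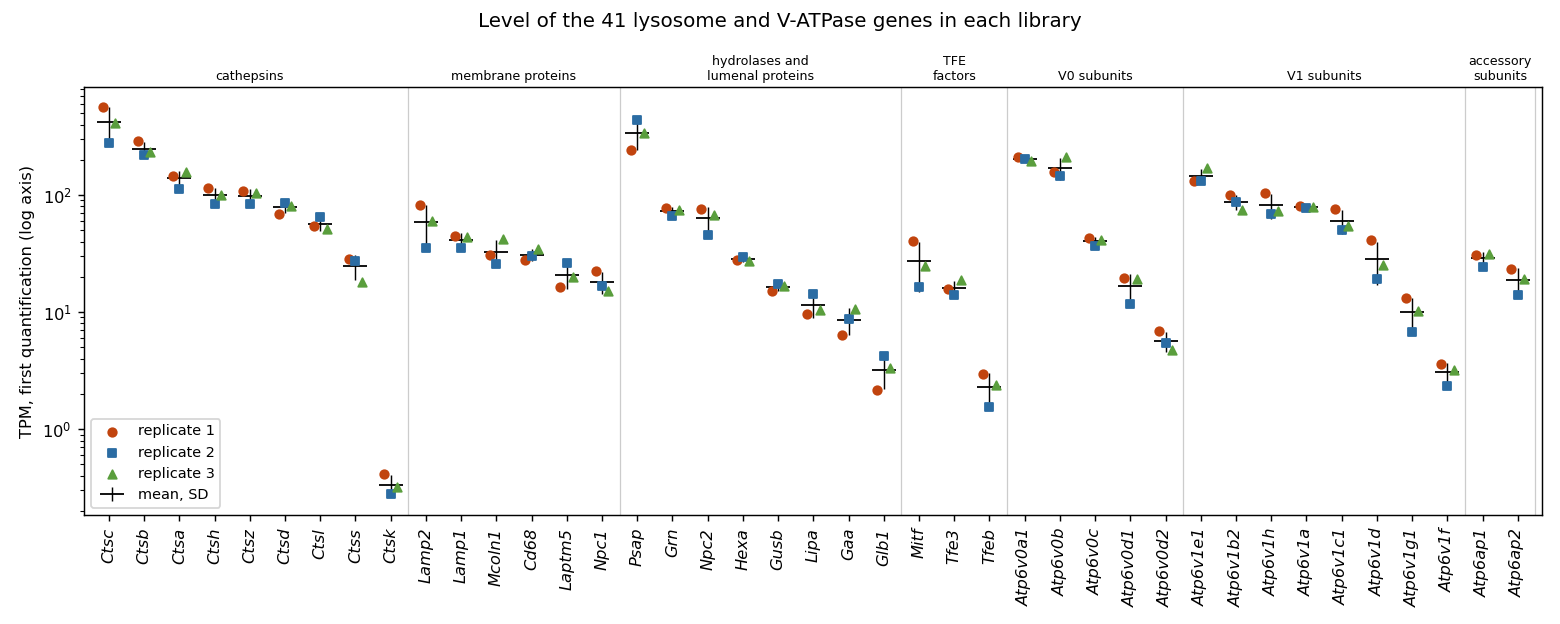
Level of each of the 41 genes on a log axis, in TPM of the first quantification, grouped by role and ordered by mean within a group. Points are the 3 libraries, horizontal bars the mean and vertical lines the SD (n = 3). Ctsc (419 TPM) and Psap (340.3 TPM) stand highest, and Ctsk (0.337 TPM) is the only member below 1 TPM.

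RNA of the proton pump genes was present in unequal amounts. The 13 V0 and V1 genes had a median of 60.4 TPM and ranged over means of 3.05 to 204 TPM. The assembled pump holds a fixed number of copies of each subunit, but the values here are RNA on chromatin and protein was not measured. Among the 5 V0 genes, Atp6v0a1 (chromosome 11, 101009452 to 101063719, plus strand), for an isoform of the large subunit a that lines the proton path, had 212, 203 and 196 TPM (204 ± 8.21). Atp6v0b, for the c'' subunit of the rotor ring, had 156, 145 and 213 TPM, and Atp6v0c, for the main ring subunit c, had 42.9, 36.8 and 41.3 TPM. In TPM the ring gene Atp6v0b was thus above Atp6v0c in each library. In expected counts, which are not divided by length, Atp6v0b had 1092, 1884 and 1830 and Atp6v0c 1107, 1766 and 1397. By counts Atp6v0c was therefore slightly higher in replicate 1. Atp6v0d1 and Atp6v0d2 encode isoforms of subunit d, which joins the ring to the V1 shaft. The widely expressed Atp6v0d1 had 19.5, 11.8 and 19.1 TPM. Atp6v0d2, known from osteoclasts and macrophages, had 6.85, 5.47 and 4.72 TPM, below Atp6v0d1 in every library.

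The 8 V1 genes had a median of 69.8 TPM. Atp6v1e1, for the stator subunit E, was the highest, with 133, 133 and 171 TPM. The catalytic subunit gene Atp6v1a had 80.4, 77.6 and 79.5 TPM, and Atp6v1b2, for its partner subunit B in the ATP-splitting head, had 100.1, 87.7 and 75.04 TPM. The ranges of these head genes overlapped at the gene level. In coding transcripts alone they did not, with 43.5 ± 3.67 TPM for Atp6v1a and 12.5 ± 1.31 TPM for Atp6v1b2. Atp6v1h, for a subunit that regulates assembly, had 104, 69.03 and 73.1 TPM, and Atp6v1c1, for the subunit C that leaves when the pump comes apart, had 75.9, 50.6 and 54.7 TPM. The shaft subunit gene Atp6v1d had 40.98, 19.1 and 25.3 TPM, and the stator subunit gene Atp6v1g1 13.2, 6.73 and 10.2 TPM. In TPM replicate 1 was the highest for every V1 gene except Atp6v1e1, where 54.02% of detected protein-coding genes were highest in that library. The short gene Atp6v1f, for the other shaft subunit, was the lowest V-ATPase member, with 3.62, 2.33 and 3.20 TPM from 25, 29 and 27 expected counts. The accessory genes were between these, Atp6ap1 with 30.6, 24.1 and 31.5 TPM and Atp6ap2, also known as the prorenin receptor, with 23.4, 13.96 and 19.3 TPM.

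The TFE factors were among the lower members. Mitf had 40.6, 16.5 and 24.5 TPM, Tfe3 15.8, 14.1 and 18.7 TPM, and Tfeb 2.98, 1.54 and 2.38 TPM. Tfeb rested on 51, 55 and 54 expected counts and stood below Tfe3 and Mitf in each library, while the ranges of Mitf and Tfe3 overlapped. Tfec, the remaining gene of the family and not a member, had 826, 336 and 537 TPM (566.5 ± 246), above all 3 in every library.

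Of 103 further genes of lysosomal biology, 86 were detected, with a median of 7.35 TPM. Among 10 other V-ATPase genes 4 were detected. Tcirg1, for the a3 isoform of subunit a that is known from osteoclast and macrophage lysosomes, had 429, 606 and 678 TPM (571 ± 128), above Atp6v0a1 in each library. Next came Atp6v0e (11.3 ± 2.06 TPM) and Atp6v0a2, another isoform of subunit a (2.09 ± 0.186 TPM). The kidney-type isoform genes Atp6v1b1 and Atp6v0a4 were at 0.02 and 0 TPM, and Atp6v1e2 and Atp6v1g3 were also listed at 0. Atp6v0e2 was listed at 0 in this quantification but had 7.03, 3.10 and 4.46 TPM in the second, where 5 of the 10 genes were detected. The remaining gene detected was Atp6v1g2, known from brain, at 1.12 ± 0.543 TPM.

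Outside the pump, 27 of 32 other hydrolases were detected, among them the asparaginyl protease gene Lgmn (41.04 ± 6.71 TPM) and the mannosidase gene Man2b1 (35.3 ± 5.03). Ctse (0.0433 TPM) and Ctsg (listed at 0) were the lowest. Among 18 other membrane proteins, 16 were detected, and the highest were Cln3 (189 ± 36.7 TPM), mutated in Batten disease, the chloride-proton exchanger gene Clcn7 (122 ± 23.9) and the two-pore channel gene Tpcn2 (118 ± 28.6), with Laptm4b (0.237) and Lamp3 (listed at 0) the lowest. All 9 genes of mannose-6-phosphate sorting were detected, from the receptor genes Igf2r (32.9 ± 3.88 TPM) and M6pr (27.1 ± 5.43) and the adaptor gene Gga1 (19.1 ± 3.60) down to Sort1 (1.82) and Nagpa (1.18). Of 17 genes of nutrient sensing at the lysosome 14 were detected. Fnip2 (138 ± 23.6 TPM) and Flcn (50.7 ± 11.4), whose products form the folliculin complex that keeps TFE factors out of the nucleus, were among the 3 highest with the Ragulator gene Lamtor3 (62.5 ± 8.11). Rraga (0.857) and Lamtor2 (0.153) were the lowest. Of 16 autophagy genes 15 were detected, with the cargo receptor genes Sqstm1 (643 ± 23.99 TPM) and Optn (78.4 ± 18.1) and Uvrag (77.9 ± 10.5) the highest and Wipi1 (0.647) and Map1lc3a (0.0733) the lowest.

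E-box sequences were looked for in windows from 250 bases before to 50 bases after the start of each gene, taken from RefSeq (GRCm38.p6). A window was available for 33 of the 41 members. The core E-box CACGTG, which reads the same on both strands, was found in 10 of these 33 (30.3%), against 2187 of 27025 genes (8.09%) and 20 of 85 of the further lysosomal genes with a window (23.5%). The 27025 genes were not filtered for gene type or detection, whereas the members are all protein-coding genes and 40 of 41 were detected. The members with the core were Atp6v0b, Atp6v0d1, Atp6v1a, Ctsa, Ctsd, Ctsl, Gaa, Glb1, Lamp1 and Mcoln1. The longer palindrome TCACGTGA, which contains the core, was in 5 members (15.2%), against 1.12% of all genes. With G before it and C after it, the palindrome was in 0 of the 33 members, against 0.37% of all genes. The form GTCACGTG, searched on both strands, always containing the core and chosen after seeing the data, was in 7 members (21.2%), against 2.55% of all genes. TFE factors are known for longer kinds of E-box. The longest form searched, the palindrome with G before it and C after it, was the one found in 0 of the 33 members. The 6 lines below show 1 site each of GTCACGTG or its reverse complement in the direction of transcription, with those 8 bases in capitals and 10 bases on each side, so that the shared core and the differing flanks can be compared.
Mcoln1: gcgccccgctCACGTGACcgcggcgcat
Ctsd: gcccgcgtctCACGTGACccgttgaggg
Ctsa: tgcagatgctCACGTGACcagagctaca
Atp6v0b: gtgcgcggggGTCACGTGgggtcggcgc
Glb1: ctgcttctgaGTCACGTGgcctacagag
Atp6v0d1: ccctactgcgGTCACGTGagacgcggtg

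These sites are at chr8:3500464-3500491 on the plus strand for Mcoln1, chr7:142387908-142387935 on the minus strand for Ctsd, chr2:164833768-164833795 on the plus strand for Ctsa, chr4:117887350-117887377 on the minus strand for Atp6v0b, chr9:114401018-114401045 on the plus strand for Glb1 and chr8:105566052-105566079 on the minus strand for Atp6v0d1. Mcoln1, Ctsd, Ctsa and Atp6v0b each held 2 core E-boxes in the window. Lamp1 held 4, the most of any member, within the 70 bases before its annotated start (chr8:13159091-13159160, plus strand), shown with each core in capitals.
Lamp1: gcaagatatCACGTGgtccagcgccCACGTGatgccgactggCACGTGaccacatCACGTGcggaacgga

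The 10 members with the core had a median of 49.1 TPM and the 23 with a window and no core one of 28.5 TPM. The holders ran from Glb1 (3.23 TPM) to Atp6v0b (172 TPM) and the others from Ctsk to Ctsc, so the groups overlapped over most of their range. A match describes letters in a window and does not show that a factor was bound.

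Differences between libraries were taken from counts scaled by TMM (a scaling that centres the bulk of genes) to CPM (counts on a fixed library size), with 0.5 added to each count. The 40 members averaging 10 or more counts had a median log2 departure from the mean of the 3 libraries of -0.11 in replicate 1, 0.13 in replicate 2 and 0.016 in replicate 3. Over all 13262 genes that did so it was -0.0035, 0.014 and 0.019, and over 10325 protein-coding genes -0.075, 0.054 and 0.042. With scaling to the library totals, which moves the median of all genes to 0.21, -0.10 and -0.081, the members' medians were 0.11, 0.012 and -0.083, so the direction in replicates 1 and 3 depends on the scaling. In TPM the members also had another order, since 24 of 40 were highest in replicate 1 and 24 lowest in replicate 2, against 54.02% and 63.4% of detected protein-coding genes. In TMM-scaled CPM 21 of the 40 were lowest in replicate 1 and 24 highest in replicate 2, against 48.2% and 38.3% of those genes. Protein-coding genes of the nucleus held 22.3%, 16.4% and 20.4% of all TPM in replicates 1, 2 and 3.

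Past a 1.5-fold difference from the mean of the other libraries, 8 members were lower in replicate 1 and 0 higher, where 21.7% of protein-coding genes were lower and 10.6% higher (18.8% and 16.9% of all genes). In replicate 2, 8 members were higher and 1 (Ctsc) was lower, against 12.1% and 7.82% of protein-coding genes (11.4% and 11.9% of all genes). In replicate 3, 1 member (Ctss) was lower and 0 were higher, against 4.56% and 7.69% of protein-coding genes (7.19% and 7.41% of all genes). The share lower in replicate 1 (20%) was near that of protein-coding genes. The counts also rest on which libraries are compared: 4 members passed 1.5-fold in replicate 1 without replicate 2, and 13 without replicate 3. In replicate 2 the count past 1.5-fold was 5 without replicate 1, and in replicate 3 it was 5 without replicate 1 and 4 without replicate 2. The share over all genes was not computed for these left-out comparisons, so these counts cannot be read as particular to the members. With 1 library on one side no test can be made.

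The members low in replicate 1 were mostly hydrolases and lumenal proteins, of which 7 of 8 were below their mean in that library (median -0.46) and 7 of 8 above it in replicate 2 (median 0.39), where 57.8% of protein-coding genes were below their mean in replicate 1 and 57.3% above it in replicate 2. With library totals both counts were again 7 of 8, with medians of -0.24 and 0.28. Glb1 had the widest range of the 40, with 5.21, 14.4 and 9.23 CPM in replicates 1, 2 and 3 (1.47 on the log2 scale). Psap had 641, 1643 and 1019.9 CPM, a range of 1.36. Lipa had 25.6, 56.3 and 30.7 CPM, Gaa 13.1, 28.0 and 26.1 CPM, and Ctsd 106, 209.9 and 151 CPM, with ranges of 1.14, 1.10 and 0.99. In all 5 the lowest library was replicate 1 and the highest replicate 2. Npc2 was the exception in its group, with 152, 122 and 149.8 CPM. Ctsc went the other way, with 978, 589 and 811 CPM, and Lamp2 likewise, with 244, 153 and 205 CPM.

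In counts of the whole gene the V1 genes showed no such lowering in replicate 1. Their medians were 0.085, 0.032 and -0.036 in replicates 1, 2 and 3. In replicate 1, 6 of 8 genes were above their mean, against 42.2% of protein-coding genes. With DESeq2 size factors 5 of 8 were above it, and with library totals these medians were 0.30, -0.086 and -0.14. Counts of coding transcripts alone were mixed in replicate 1 against the mean of the other libraries. On the log2 scale they were lower for Atp6v1h (-0.74), Atp6v1e1 (-0.46), Atp6v1a (-0.34), Atp6v1b2 (-0.24) and Atp6v1c1 (-0.11). They were higher for Atp6v1d (0.39) and for Atp6v1g1 (0.35) and Atp6v1f (0.14), which have coding transcripts only. The narrowest ranges were those of Lamp1 (62.2, 64.8 and 61.9 CPM, 0.067 on the log2 scale), Ctsz (145, 159.8 and 157 CPM, 0.14) and Atp6v0d1 (22.4, 21.9 and 24.4 CPM, 0.16). The biological coefficient of variation between the libraries, estimated for each gene with edgeR, had a median of 0.231 over the members, against 0.2504 over protein-coding genes. Replicate 1 was also the library with the most RNA input and the fewest counts, and replicate 2 that with the least input and the most counts. Their part in these differences was not tested.

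**Figure D2:**
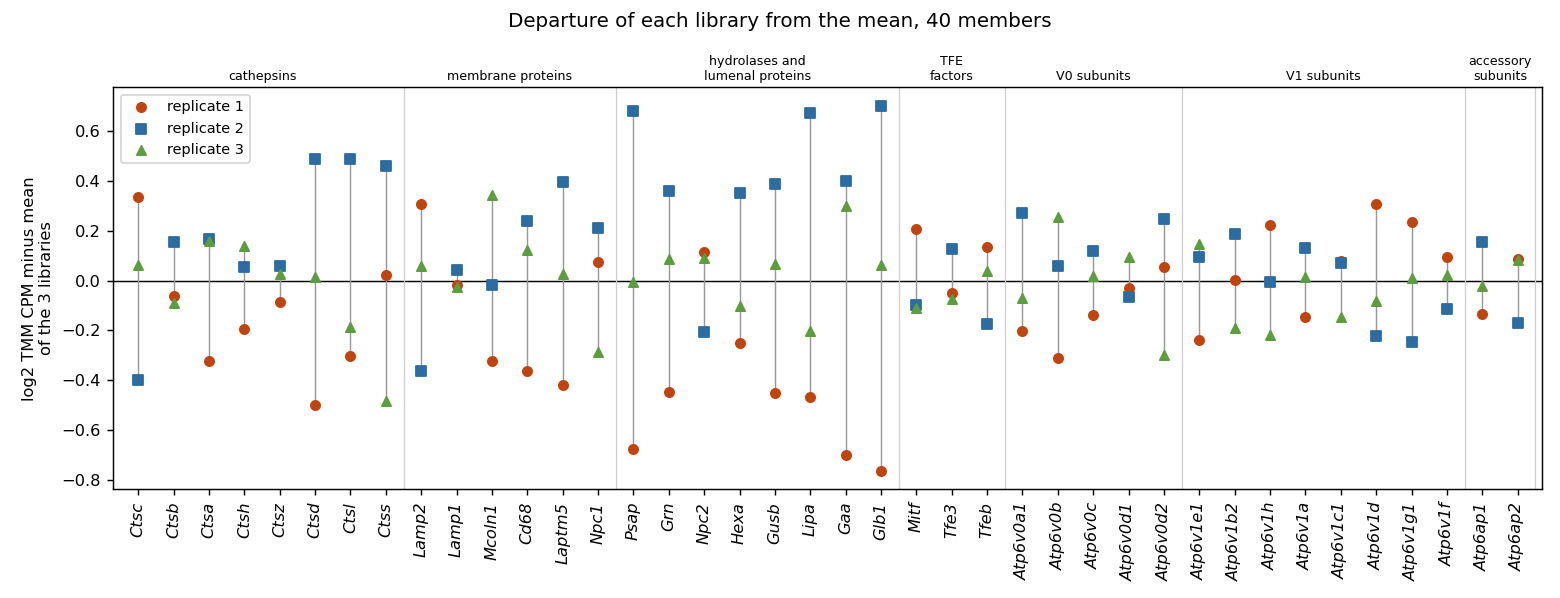
Log2 TMM-scaled CPM of each library minus the mean of the 3 libraries, for the 40 members averaging 10 or more counts, grouped by role as in the plot of levels. Points are libraries and grey lines join the lowest to the highest. Among the hydrolases and lumenal proteins 7 of 8 are below 0 in replicate 1 and 7 of 8 above 0 in replicate 2 (57.8% and 57.3% of protein-coding genes), while the V1 subunits scatter around 0.

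By TPM, more than 50% of the RNA of most of these genes with both kinds of transcript was assigned to transcripts that GENCODE does not class as protein coding. Such classes are retained intron, processed transcript and nonsense-mediated decay. They are often fragments that keep intron sequence, to which unspliced RNA can be assigned. Among the 33 detected members with transcripts of both kinds, the median share of a gene's TPM in the non-coding classes was 55.0%, against 47.5% over 8067 protein-coding genes, and the median share of retained introns was 46.9%, against 30.6%. The share passed 50% in 21 of the 33 members (63.6%), against 46.7% of those genes. By expected counts, which are not divided by length, the share passed 50% in 10 of the 33 members (30.3%), against 28.4% of those genes, and the median share was 36.0%, against 27.3%. Psap, Ctsz, Ctss, Hexa, Atp6v0d2, Atp6v1f, Atp6v1g1 and Ctsk have no annotated transcript of a non-coding class, and the 1 annotated for Cd68 was given nothing.

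Ctsh had the highest share, with 92.8%, 86.5% and 89.7% in replicates 1, 2 and 3, so that its protein-coding transcripts averaged 9.97 ± 1.66 TPM of a gene level of 99.5 TPM. Atp6v1b2 had 86.9%, 87.5% and 82.2%, leaving 12.5 ± 1.31 TPM in its coding transcript. Tfe3 had 92.04%, 81.04% and 81.6%, leaving 2.46 ± 1.11 TPM. For these 3 genes most of the TPM was therefore that of non-coding models. Npc2 had 77.5%, 82.6% and 80.8%, and Atp6v0c had 73.98%, 74.8% and 75.2%, all of it in processed transcripts.

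Single transcripts were compared in TPM, which divides by length and so weights short models up. Ctsb-203, a model of 1 exon that spans the first 5.63% of the gene from its 5′ end and retains intron sequence, had 206, 99.7 and 142 TPM. The full-length coding transcript Ctsb-201 had 68.3, 66.03 and 66.5 TPM, below Ctsb-203 in every library. In scaled counts the order of the classes was the other way, with 335, 469 and 374 CPM in the coding classes of Ctsb and 247, 208 and 198 CPM in the non-coding ones. The highest Ctsc transcript by mean was Ctsc-203, a coding model that spans the first 40.6% of the gene, with 209.8, 79.1 and 153 TPM (147 ± 65.5). Ctsc-204 and Ctsc-205, both retained-intron models, had 101 ± 23.1 and 124 ± 41.03 TPM, and the complete coding transcript Ctsc-201 45.9 ± 15.4 TPM. The retained-intron model Mitf-206 at the 5′ part of Mitf had 25.4, 6.69 and 11.6 TPM. The longest coding transcript Mitf-202 had 9.68, 7.74 and 8.15 TPM. All coding transcripts of Mitf together had 15.2, 9.79 and 12.95 TPM, also highest in replicate 1 and lowest in replicate 2. In scaled counts the coding classes of Mitf had 58.2, 60.9 and 56.0 CPM and the non-coding ones 31.8, 11.9 and 16.2 CPM. Counted by coding transcripts alone, the order of means at the top changed, with Psap (340.3 ± 95.6 TPM) before Ctsc (194 ± 80.9), Atp6v0b (116 ± 25.4), Ctsz (99.0 ± 12.8) and Atp6v0a1 (70.1 ± 13.1). The place of Atp6v0b rests largely on Atp6v0b-206 (56.2 ± 13.1 TPM), a coding model of 776 bases in the first 33.6% of the gene. The coding model that spans the gene, Atp6v0b-201, had 23.3 ± 4.19 TPM. The ranges of Psap and Ctsc overlapped, and in replicate 1 Ctsc had 271 TPM and Psap 244 TPM. On the same scale the relatives outside the list had 237 ± 56.7 TPM for Tcirg1 and 224 ± 99.7 TPM for Tfec.

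**Figure D3:**
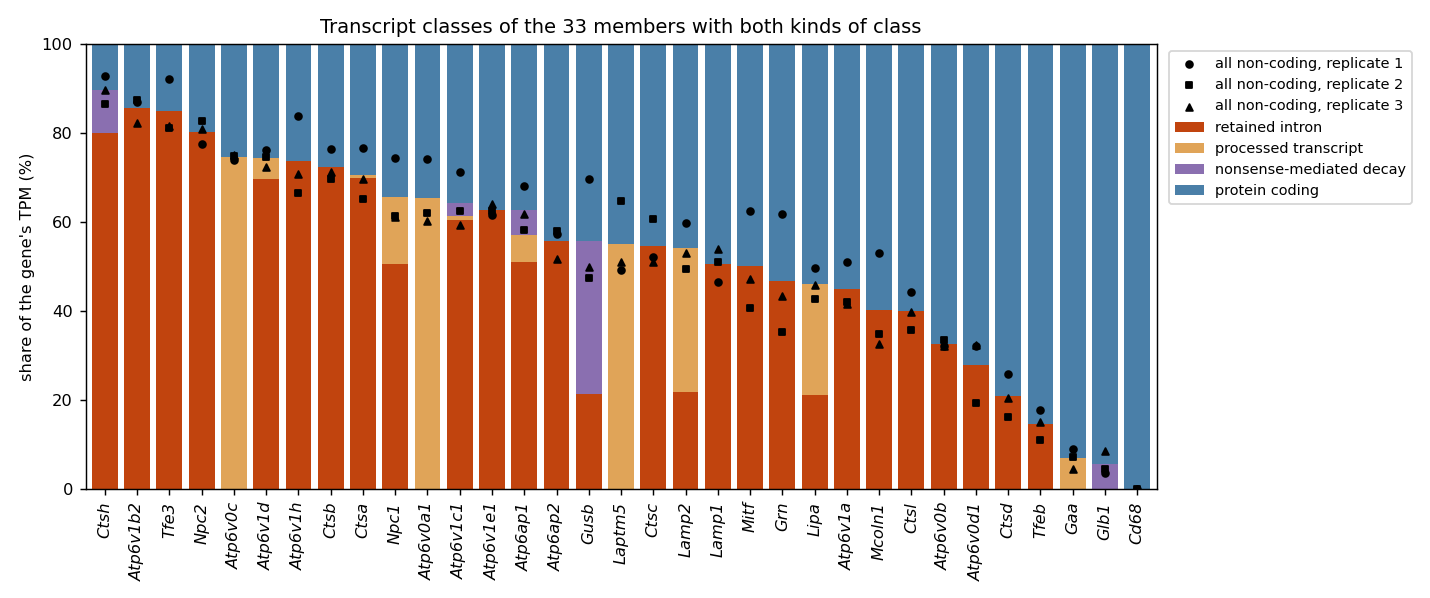
Share of each gene's TPM by transcript class (stacked bars, mean of 3 libraries, in percent) for the 33 detected members with coding and non-coding classes, ordered by the non-coding share. Black points give the sum of the non-coding classes in each library. The bars run from Ctsh (89.7% non-coding) to Cd68 (0%), and 21 of 33 pass 50%.

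The share in non-coding classes was highest in replicate 1 for 21 of the 33 members (63.6%), against 51.6% of the 8067 genes. When the counts of each kind were scaled separately by the gene-level TMM factors, the lowering in replicate 1 lay in the coding classes. Over 29 members averaging 10 or more counts in both kinds, coding counts were a median of 0.46 lower on the log2 scale in replicate 1 than in the mean of the other libraries (-0.46), and non-coding counts 0.14 higher. Over 5658 protein-coding genes treated alike the medians were -0.32 and 0.13. Coding counts were lower in replicate 1 by 1.5-fold or more in 11 of 29 members (37.9%), against 33.7% of those genes, and non-coding counts in 1 of 29 (Laptm5), against 14.5%. Non-coding counts stood above coding counts, each relative to the other libraries, in 24 of 29 members (82.8%), against 73.5%. The members thus followed a difference of replicate 1 that protein-coding genes shared at similar size. Scaled to the library totals the medians were -0.13 and 0.47, and in the second quantification -0.26 and 0.019.

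Gusb had the largest lowering of coding counts in replicate 1 against the other libraries (-1.42 on the log2 scale) among the 29 members. Its coding counts were 10.5, 32.8 and 23.8 CPM in replicates 1, 2 and 3, while its non-coding counts were 18.1, 18.2 and 17.04 CPM. Grn had 48.7, 110.5 and 87.8 CPM in coding classes and 24.3, 17.1 and 17.7 CPM in non-coding ones. Replicate 1 was thus lowest in the coding and highest in the non-coding counts of the same gene. Mcoln1 had 23.9, 43.9 and 56.1 coding CPM and 31.03, 23.8 and 30.9 non-coding CPM. Atp6v0a1 had 209, 412 and 331 coding CPM and 335, 346 and 267 non-coding CPM. Lipa differed from these, being lowest in replicate 1 in both kinds, with 14.6, 35.3 and 19.1 coding and 11.03, 21.1 and 11.7 non-coding CPM. Ctsc was highest in replicate 1 in both, with 834, 479 and 703 coding and 144, 110.3 and 108 non-coding CPM.

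**Figure D4:**
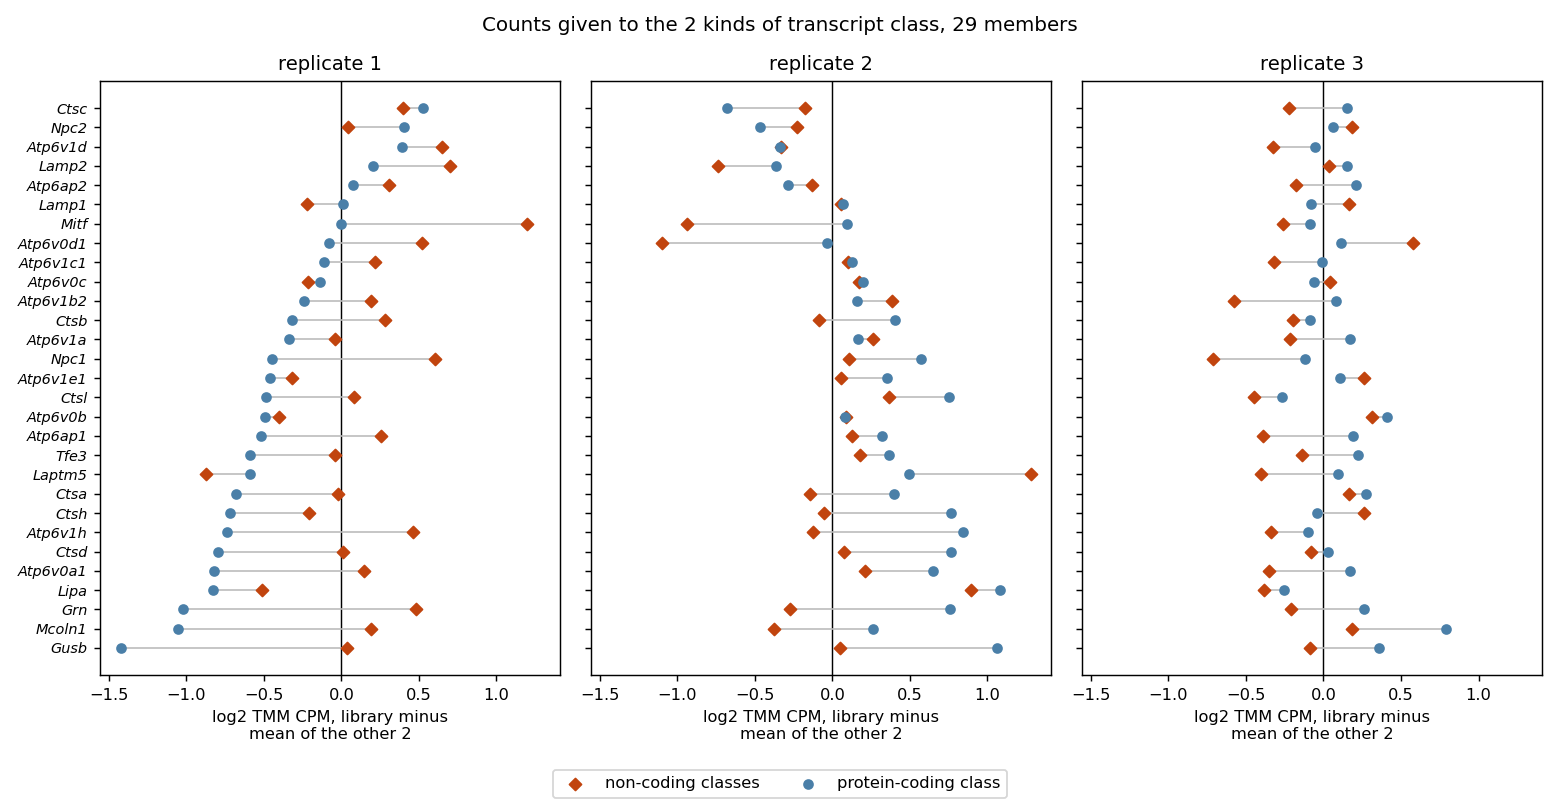
Log2 TMM-scaled CPM of 1 library minus the mean of the other libraries, for counts given to protein-coding (blue circles) and non-coding (red diamonds) transcript classes of 29 members, 1 panel per replicate, ordered by the coding value in replicate 1. In replicate 1 the coding value is below 0 in 23 of 29 members and the non-coding value in 10 of 29, against 70.6% and 41.6% of 5658 protein-coding genes.

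The levels depended on how the reads were quantified. In the first quantification each of the 40 detected members was lower than in the second. Of the 9665 detected protein-coding genes only 5.34% were higher in the first. The members had a median log2 difference of -0.72, against -0.68 over those genes. The second was at least 1.5-fold above the first for 25 of the 40 members (62.5%), against 56.9% of those genes. Ctsl had 54.8, 64.7 and 50.8 TPM in the first and 218, 232 and 175 TPM in the second, a log2 difference of -1.87. Tfeb had 2.98, 1.54 and 2.38 TPM in the first and 11.7, 7.63 and 6.52 TPM in the second (-1.86), and Atp6v1f averaged 3.05 and 8.89 TPM (-1.51). For these 3 genes no library of the first quantification reached any library of the second. The differences nearest 0 were those of Psap (340.3 and 371 TPM, -0.13), Lamp2 (59.3 and 65.1 TPM, -0.13) and Ctss (24.7 and 27.8 TPM, -0.17). The order of the 40 members was nearly the same in both (Spearman's rho 0.973 across genes, which share the same reads).

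Some members overlap other genes, no source used here states the strand setting of the counting, and their reads could not be told apart with certainty. Ctsd shares 6757 bases with Gm49369 on the same strand, a gene model listed at 42.4 TPM. Glb1 shares 6172 bases with the protein-coding gene Tmppe, also on the same strand. Tmppe had 42.36, 45.14 and 56 expected counts in replicates 1, 2 and 3, and Glb1 had 62.64, 233.86 and 127. How far this overlap affects the level and range given for Glb1 was not tested. Ctsc overlaps the long noncoding RNA gene Gm26522 on the opposite strand by 4743 bases (82.8 TPM), Ctsa overlaps Pltp by 1515 bases (46.02 TPM), and Lamp1 overlaps Grtp1 by 3317 bases (12.6 TPM), both on the opposite strand.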

How the data were processed

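The 3 libraries and their group came from the labels. The first quantification is the deposited gene and transcript tables with expected counts (estimated counts that need not be whole) and TPM, per the file headers. The second is the deposited transcript tables of estimated counts and TPM, summed per gene. Per the deposited notes, reads were placed on mm10 with GENCODE M21; the tools and the strand setting are not given in the sources used here. Rows naming no mouse gene (1.28%, 0.427% and 0.383% of counts in replicates 1, 2 and 3) were left out. Expected counts were rounded and scaled by TMM in edgeR 4.0.16 (R 4.3.3) with an intercept-only design; DESeq2 1.42.0 size factors were an alternative. The scripts were tested on simulated data. TPM was used between genes and CPM between libraries. No test was made, because 3 libraries of 1 group allow no exact p under 0.25 (sign flips). A gene at 0 may hold up to 3 counts, which covers counting error only, and the tables give no molecular identifiers. Genes described in full were the highest and lowest of each role group, all V-ATPase and TFE members, the extremes of range, quantification and non-coding share, and the 3 highest and 2 lowest of each further list (1 of these is not reported here); others were chosen after their values were seen. The members and lists were chosen with earlier results of these data known.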

Additional observations from a re-analysis of the deposited data

How the results depend on the processing

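No paired analysis was possible because the libraries form 1 group. Each of 41 members stayed within 1.33-fold of its mean TPM when 1 library was left out, and 36 moved by more than 1 SD in the second quantification. The median member level was 58.6 TPM in the second quantification and 167 TPM when TPM was rescaled to nuclear protein-coding genes. The median departure in replicate 1 was 0.11 with library totals and between -0.13 and -0.058 without another replicate. In replicate 3 it was -0.083 with library totals, -0.047 in the second quantification and between -0.059 and 0.058 without another replicate. At 2-fold, 3, 3 and 0 members passed in replicates 1, 2 and 3, against 8, 9 and 1 at 1.5-fold. With library totals 5 passed in replicate 2 and 2 in replicate 3. Leaving out a replicate gave 4 to 13 members in replicate 1, 5 to 13 in replicate 2 and 4 to 5 in replicate 3. For the counts at 2-fold, with library totals and with a replicate left out, the share over all genes was not computed. The median non-coding share was 36.0% by expected counts, and 10 members passed 50%, against 21 by TPM. For replicate 1, coding counts moved to -0.13 and non-coding counts to 0.47 with library totals, and to -0.26 and 0.019 in the second quantification; these alternatives, the count of members past 50% and the GTCACGTG search were chosen after seeing the data. The core E-box was in 10 members, where TCACGTGA was in 5. The cause of these moves was not tested. Detection of members stayed between 39 and 41 under all alternatives tried. Depth limits Ctsk, Atp6v1f and Tfeb most.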
